A study of Mus musculus with 5 samples.

Results

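The genes described here are the mouse zinc finger protein genes with symbols of the form Zfp and a number, optionally followed by 1 letter. Of 390 such rows among 32285 genes, 91 reached 20 CPM (UMIs summed over all barcodes of a library and scaled to a total of 1000000) in at least 1 of 5 libraries, and these 91 are the members. Zfp42, which the symbol rule would also catch, was left out because its promoter drives the reporter of the cell line. All libraries came from mouse embryonic stem cells of the line REX-1 RFP, in which a Rex1 promoter drives a red fluorescent protein, grown for 72 h under 1 condition each. The library labelled NS was LIF positive, the library labelled ND was LIF negative, and 3 LIF positive libraries were grown with 200, 250 or 300 mM of the osmolyte sorbitol. LIF (leukaemia inhibitory factor) is the cytokine that sustains self-renewal in culture, and the labels do not spell out NS and ND. Each condition has 1 library, so nothing below has a replicate check, no p-value is given, and every interval is a 95% interval for counting error only.

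The members were chosen by their highest CPM in these libraries, so passing the threshold is no finding. Only 54 members were at 20 CPM or more in all 5 libraries, 21 were below 20 CPM in NS, and 11 reached 20 CPM in a single library. The 3 members just inside the threshold were Zfp982, Zfp820 and Zfp30, whose highest levels were 20.04, 20.2 and 20.4 CPM. The 3 rows just outside were Zfp317, Zfp839 and Zfp414, at 19.99, 19.4 and 19.2 CPM. Of the 299 rows that did not pass, 170 peaked at 5 to 20 CPM, 92 at 1 to 5 CPM and 37 under 1 CPM, and 8 of them had no UMI in any library. The share of Zfp rows that passed, 23.3%, lay beside 21.6% of the 31895 other rows. Every member had at least 31 UMIs in every library.

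A C2H2 zinc finger is a short fold in which a pair of cysteines and a pair of histidines hold a zinc ion, and an array of such fingers reads a DNA sequence or, in some proteins, binds RNA. Many mammalian Zfp genes add a KRAB domain, which recruits the corepressor TRIM28 (KAP1), the histone methyltransferase SETDB1 and HP1 proteins, and so places repressive H3K9 methylation. In embryonic stem cells this route keeps endogenous retroviruses silent and protects imprinted DNA methylation. Other C2H2 proteins act in pluripotency networks, in ribosome assembly and quality control, or in the ubiquitin and SUMO systems, so a shared symbol does not mean a shared task.

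The coding stretches of single fingers are shown for members at the extremes of the comparisons below, because they show what the members have in common at the sequence level and how their arrays differ. They were read from GENCODE M21 transcripts (GRCm38), 5′ to 3′, and the capitals mark the codons of the zinc-binding cysteines and histidines. Zfp57 had 3 finger matches in its coding sequence, Zfp740 had 2, Zfp217 had 8, Zfp593 had 1, and Zfp787 and Zfp982 had 7 each. The fingers printed cover residues 170 to 190 of Zfp57, 115 to 135 of Zfp740, 151 to 171 of Zfp217, 63 to 85 of Zfp593 and 96 to 116 of Zfp787, and residues 272 to 292 and 300 to 320 of Zfp982.
Zfp57: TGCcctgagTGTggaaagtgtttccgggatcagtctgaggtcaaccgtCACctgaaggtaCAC
Zfp740: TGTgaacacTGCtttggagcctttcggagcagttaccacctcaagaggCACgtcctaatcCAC
Zfp217: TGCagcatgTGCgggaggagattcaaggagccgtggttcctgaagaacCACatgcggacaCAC
Zfp593: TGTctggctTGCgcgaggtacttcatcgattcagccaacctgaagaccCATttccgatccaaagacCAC
Zfp787: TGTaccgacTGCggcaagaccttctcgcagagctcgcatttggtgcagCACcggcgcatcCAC
Zfp982, residues 272 to 292: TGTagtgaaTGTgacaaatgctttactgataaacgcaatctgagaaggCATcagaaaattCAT
Zfp982, residues 300 to 320: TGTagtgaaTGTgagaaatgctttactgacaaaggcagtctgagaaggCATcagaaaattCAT
The finger of Zfp593 is 69 bases long, longer than the 63 bases of the others, because more residues separate its histidines. The pair shown for Zfp982 is identical at 59 of 63 bases, and repeats of this kind are usual in the young KRAB zinc finger clusters of the mouse.

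The NS library held 22158653 UMIs and the others 8404105 to 9766705, each over 10000 barcodes, with a median of 2135 UMIs per barcode in NS and 800 to 939 elsewhere. Any pair of libraries shared 34 to 54 of their barcodes. All 10 stem cell markers examined (Pou5f1, Sox2, Nanog, Esrrb and others) were at 5 CPM or more in every library. The summed fibroblast markers were at 2.59 to 9.32 CPM, and Col3a1 and Postn had 0 UMIs everywhere, where 3 UMIs would be 0.135 to 0.357 CPM. The summed trophoblast markers ranged from 95.4 CPM in NS to 207 CPM at 300 mM, the primitive endoderm markers from 12.3 to 25.8 CPM and the neuroectoderm markers from 44.8 to 77.1 CPM. Ribosomal protein genes took 28.4% of UMIs in NS, 25.6% in ND and 25.3%, 22.5% and 21.3% with rising dose. Scaling to the median ratio over the 6996 genes that passed the threshold (median-of-ratios) lowered all log2 ratios to NS by 0.09 in ND and by 0.14, 0.20 and 0.25 at the 3 doses. Counts of members 1.5-fold higher or lower are therefore given under both scalings.

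Summed over the 91 members, the level was 3758 CPM in NS, 3996 CPM in ND and 3776, 4205 and 4321 CPM at 200, 250 and 300 mM. Transcripts of the 91 members thus made up 0.376% to 0.432% of all UMIs, highest at 300 mM. All 390 Zfp rows made up 0.523% in NS to 0.607% at 300 mM. The ratio to NS was 1.06 in ND and 1.005, 1.119 and 1.15 at the 3 doses as CPM, but 0.997, 0.911, 0.971 and 0.965 under median-of-ratios scaling, so the direction of the sum turns with the scaling. With ribosomal protein and mitochondrial genes left out of the library totals it was 5557 CPM in NS, 5757 CPM in ND and 5464, 5864 and 5957 CPM at the doses. Of the 91 members, 31 had their highest CPM at 300 mM, 23 in ND, 14 at 250 mM, 12 in NS and 11 at 200 mM. The share highest at 300 mM was 34.1%, beside 34.3% of the 6905 other genes. The median ratio of a member's highest to its lowest library was 1.66, beside 1.61 among the others, and 24 members (26.4%, beside 24.9%) spanned 2-fold or more.

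The members with the highest mean CPM over the 5 libraries were Zfp106, Zfp706, Zfp639, Zfp207, Zfp638, Zfp91, Zfp568, Zfp292, Zfp710 and Zfp60, an order of tag numbers that is not scaled to transcript length. Zfp106, an RNA-binding protein, was at 304 CPM in NS, 365 CPM in ND and 429, 456 and 385 CPM at 200, 250 and 300 mM. NS was its lowest library and the 250 mM library its highest. Zfp706, whose product is known to repress Klf4 and to help cells leave self-renewal, was at 264, 294, 254, 294 and 297 CPM in the same order, a range of under 1.2-fold. Its 76-residue protein had a single finger match. Zfp60 was at 51.3 CPM in NS and 53.3 CPM in ND, and at 96.7, 74.9 and 56.2 CPM at 200, 250 and 300 mM. It was therefore highest at the lowest dose and came back near the NS level at the highest.

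**Figure D1:**
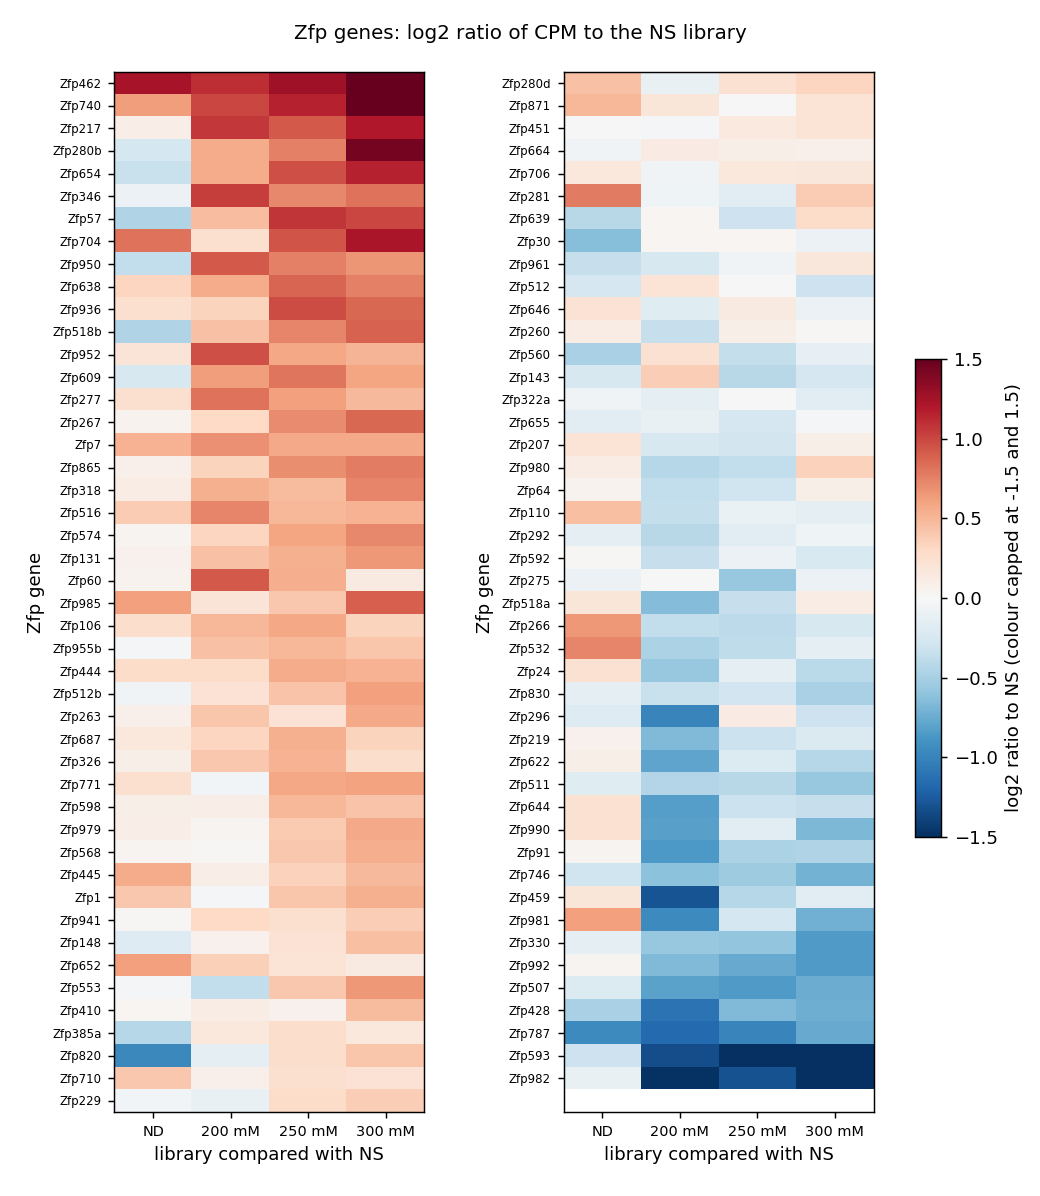
Log2 ratio of CPM to the NS library for each of the 91 members (rows) in ND and at 200, 250 and 300 mM sorbitol (columns), sorted by the mean ratio over the 3 doses; red is higher and blue lower than NS, with colours capped at 1.5 either way. Zfp462 is red in all 4 columns and Zfp787 blue in all 4, while Zfp217 is near 0 in ND and red at each dose.

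Without LIF, few members differed from NS by 1.5-fold. In ND against NS, 9 of 91 members were at least 1.5-fold higher and 3 were at least 1.5-fold lower, which is 9.89% and 3.3% beside 7.69% and 4.5% of all 6996 genes. Under median-of-ratios scaling 4 members were higher and 3 lower, beside 5.09% and 6.42% of all genes. The median log2 ratio was 0.05 for the members and 0.09 for all genes. These shares lie near the background.

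Zfp462 stood highest among them. It encodes a very large C2H2 protein (33 finger matches in 2495 residues, the most of any member) that is known to recruit H3K9 methyltransferases in stem cells, and it lies on chromosome 4 at 54945048 to 55083563 (GRCm38, plus strand). Its level was 17.1 CPM in NS and 40.4 CPM in ND, a log2 ratio of 1.24 (1.03 to 1.46). The intervals of the levels did not overlap. Zfp462 was below 20 CPM in NS and passed the threshold through other libraries, so the choice of members favoured a ratio above NS. The next were Zfp704 (28.5 CPM in NS and 50.1 CPM in ND), Zfp281 (32.9 and 56.2 CPM) and Zfp532 (22.5 and 37.4 CPM), with log2 ratios of 0.81, 0.78 and 0.73. Zfp281 is known to drive the passage of stem cells from the naive to the primed state. These 4 members kept the 1.5-fold call under both scalings, whereas Zfp266, Zfp740, Zfp652, Zfp985 and Zfp981 (log2 ratios of 0.61 to 0.65 as CPM) kept it only as CPM.

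On the lower side Zfp787 was at 34.9 CPM in NS and 18.0 CPM in ND, a log2 ratio of -0.95 (-1.21 to -0.70), and Zfp30 at 20.04 and 12.8 CPM, a log2 ratio of -0.64 (-0.96 to -0.34). Zfp820 was at 15.2 and 7.78 CPM, below 20 CPM in both libraries, with a log2 ratio of -0.97 (-1.37 to -0.58). It is named because the count is small, after its values were seen. Zfp428, Zfp560, Zfp518b and Zfp57 followed with log2 ratios of -0.49 to -0.45, short of 1.5-fold. No member was 1.5-fold from NS one way in ND and the other way at all 3 sorbitol doses.

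Under sorbitol some members were higher and others lower, and the balance differed between doses. At 200 mM 11 members were 1.5-fold higher than NS and 16 lower (12.1% and 17.6%), beside 22.3% and 10.4% of all genes. At 250 mM 17 were higher and 7 lower (18.7% and 7.69%), beside 23.1% and 7.49%. At 300 mM 22 were higher and 10 lower (24.2% and 10.99%), beside 29.8% and 9.69%. At each dose the members' share on the higher side was below that of all genes, and at 200 mM their share on the lower side was above it. The first point holds for the members only. Of all Zfp rows with over 3 UMIs in either library, 22.6%, 26.8% and 30.7% were higher at the 3 doses. At 200 mM 14.3% of these rows were lower. They include rows with few UMIs, and all genes were not counted without the minimum.

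Median-of-ratios scaling gave 9 higher and 19 lower members at 200 mM (background 15.6% and 15.6%), 9 and 15 at 250 mM (13.6% and 13.9%), and 11 and 16 at 300 mM (17.5% and 18.2%). The split between higher and lower thus turned with the scaling at 250 and 300 mM, for the members as for all genes. All 16, 7 and 10 lower calls at the 3 doses held under both scalings, while 9 of 11, 9 of 17 and 11 of 22 higher calls did. The members' median log2 ratio was 0.03, 0.20 and 0.26 at 200, 250 and 300 mM as CPM, beside 0.14, 0.20 and 0.26 over all genes. The median was thus below that of all genes at 200 mM and equal to it, to 2 decimals, at the higher doses.

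Among genes of like level the same held at 200 mM as CPM. Of 45 members peaking at 20 to 40 CPM, 11.1% were higher and 17.8% lower at 200 mM, beside 29.5% and 8.88% of 2375 other genes in that range. Of 34 members peaking at 40 to 80 CPM, 14.7% were higher and 17.6% lower, beside 22.8% and 8.64% of 2107 others. The 12 members from 80 CPM up to the highest member gave 8.33% and 16.7%, beside 16.3% and 13.4% of 2088 others. At 300 mM as CPM the middle range was close to the others (32.4% higher, beside 31.0%). In the lowest range 20% of members were higher, beside 35.7%.

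**Figure D2:**
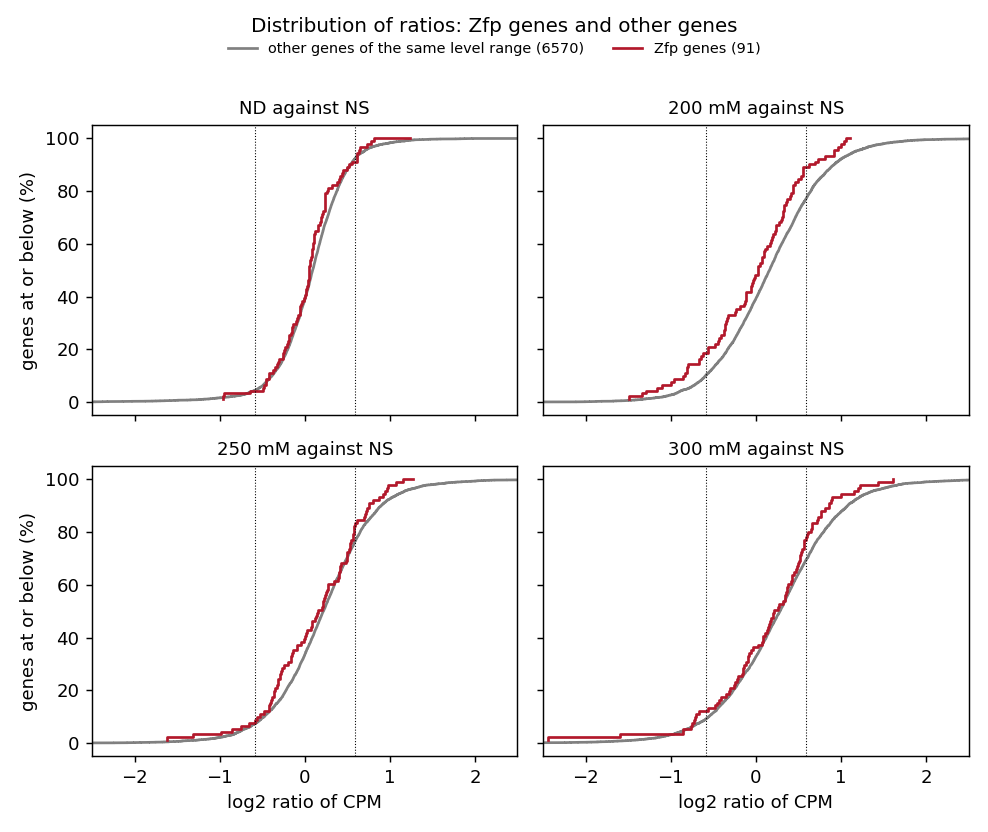
Cumulative share of genes (y axis, %) at or below a given log2 ratio of CPM (x axis) in 4 comparisons with NS, for the 91 members and for the other genes in the same range of highest level; dotted lines mark 1.5-fold. At 200 mM the line of the members lies left of the other genes over most of the range, with medians of 0.03 for members and 0.14 for all genes, and in ND the lines nearly coincide.

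**Figure D3:**
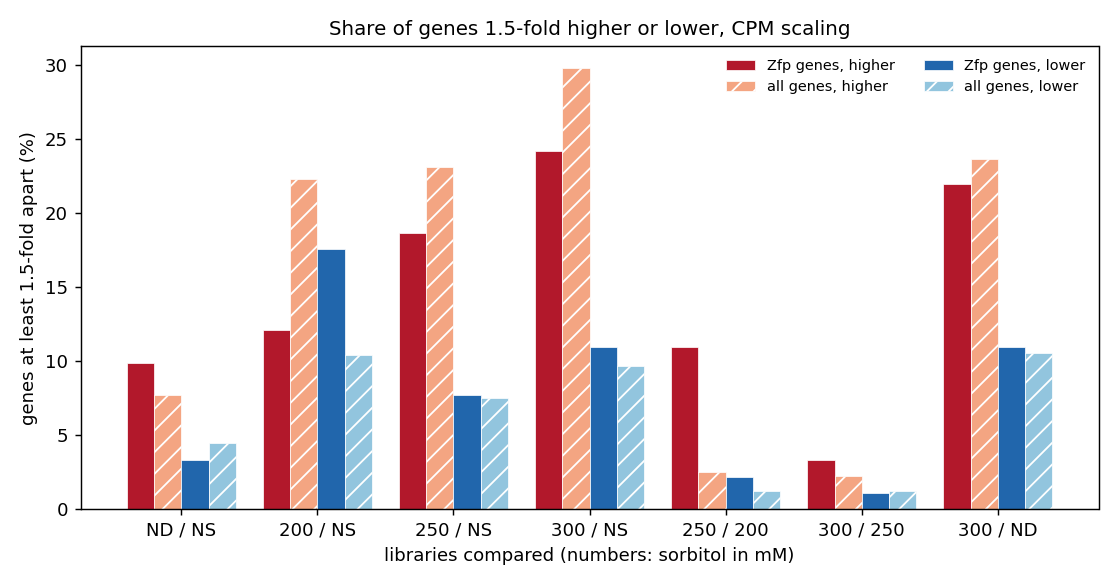
Share of genes (%) at least 1.5-fold higher (red tones) or lower (blue tones) as CPM in each of 7 comparisons, solid bars for the 91 members and hatched bars for all 6996 genes that passed the threshold. At 200 mM against NS the members show 12.1% higher and 17.6% lower, and all genes 22.3% and 10.4%.

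At all 3 doses 6 members were at least 1.5-fold above NS (Zfp217, Zfp346, Zfp462, Zfp609, Zfp740 and Zfp950) and 6 at least 1.5-fold below it (Zfp428, Zfp507, Zfp593, Zfp787, Zfp982 and Zfp992). That is 6.59% each way, beside 16.3% above and 5.14% below among the 6905 other genes. Under median-of-ratios scaling 3 were above at all doses (Zfp217, Zfp462 and Zfp740) and 9 below (the same 6 and Zfp330, Zfp746, which reached 20 CPM only in NS, and Zfp91), 3.30% and 9.89% beside 9.76% and 9.70%. Without any fold threshold, 43 members were above NS at all doses and 25 below as CPM, and 31 and 37 under the other scaling. As CPM that is 47.3% and 27.5%, beside 53.3% and 26.9% of the others. Under the other scaling it is 34.1% and 40.7%, beside 2762 above and 2790 (40.4%) below among the 6905 others. The members' share above NS was thus lower than that of the others under both scalings, and their share below was close to it. At no dose were 47 members 1.5-fold from NS, 51.6% beside 51.8% of the others.

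Zfp740 had the highest ratio to NS of any member as CPM, at 300 mM, within counting error of that of Zfp462. It lies on chromosome 15 at 102203249 to 102215606 (plus strand), and was at 14.8 CPM in NS, 22.9 CPM in ND and 29.6, 32.9 and 45.2 CPM at 200, 250 and 300 mM. Its level was ordered with dose, and the log2 ratio at 300 mM was 1.62 (1.40 to 1.83). Zfp740 was below 20 CPM in NS alone, so the choice of members favoured levels above NS. Its exons overlap on the opposite strand those of Csad, which encodes an enzyme that makes the osmolyte precursor hypotaurine. Csad was at 14.5 CPM in NS, 11.9 CPM in ND and 33.4, 36.5 and 30.9 CPM at the 3 doses. The use of strand in counting is not given in the sources used here, so reads of Zfp740 and Csad cannot be told apart with certainty. Csad was lower in ND than in NS and Zfp740 higher.

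Zfp462 followed NS and ND levels of 17.1 and 40.4 CPM with 36.8, 41.3 and 52.1 CPM at the 3 doses. Its log2 ratios to NS were 1.11, 1.27 and 1.61 (1.41 to 1.81 at 300 mM). NS alone was low, and as CPM the other 4 libraries were all more than 2-fold above it. Under median-of-ratios scaling the log2 ratio at 200 mM was 0.97. With 1 NS library, also the deepest, this pattern cannot be told apart from a property of that library. Zfp462 was below 20 CPM in NS alone, so the choice of members also favoured this pattern. Zfp217, a partner of the LSD1 and CoREST demethylase complex that is also known to restrain RNA methylation in stem cells, lies on chromosome 2 at 170108643 to 170148103 (minus strand). It was at 22.6 CPM in NS, 24.2 CPM in ND and 46.9, 42.6 and 51.8 CPM at the 3 doses, so that both libraries without sorbitol were low and all 3 with it were high. The interval of its ND ratio (-0.14 to 0.34) holds 0, and that at 300 mM was 1.01 to 1.39.

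The other 3 members of the higher group had a lower CPM in ND than in NS, for Zfp346 within counting error. Zfp346, which binds double-stranded RNA, was at 16.4 CPM in NS, 15.4 CPM in ND and 33.6, 27.1 and 28.8 CPM at the doses. Zfp609, a partner of the Integrator complex and of the cohesin loader NIPBL, was at 34.0 and 28.9 CPM without sorbitol and 52.5, 59.4 and 51.4 CPM with it. Zfp950, a KRAB zinc finger gene, was at 13.7 and 10.6 CPM, and at 25.9, 23.1 and 21.7 CPM. In none of the 3 was the level highest at the highest dose. Zfp346 and Zfp950 passed the threshold only through the sorbitol libraries, so the choice of members favoured their higher levels there.

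Several members were high at 300 mM without reaching 1.5-fold at every dose. Zfp280b was at 21.2 CPM in NS, 17.7 CPM in ND and 31.2, 35.7 and 57.4 CPM at the doses, in order of dose, a log2 ratio to NS of 1.44 (1.25 to 1.62) at 300 mM. Zfp704 was at 28.5 CPM in NS, 50.1 CPM in ND and 33.7, 54.8 and 66.4 CPM, so it was high in ND and at the upper doses and near NS at 200 mM. Zfp654 was at 12.3 CPM in NS and 9.78 CPM in ND, and at 18.1, 24.2 and 27.5 CPM at the doses. Its log2 ratio at 300 mM was 1.16 (0.90 to 1.42). Zfp654 passed the threshold only through the 2 upper doses, so the choice of members favoured its higher level there.

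**Figure D4:**
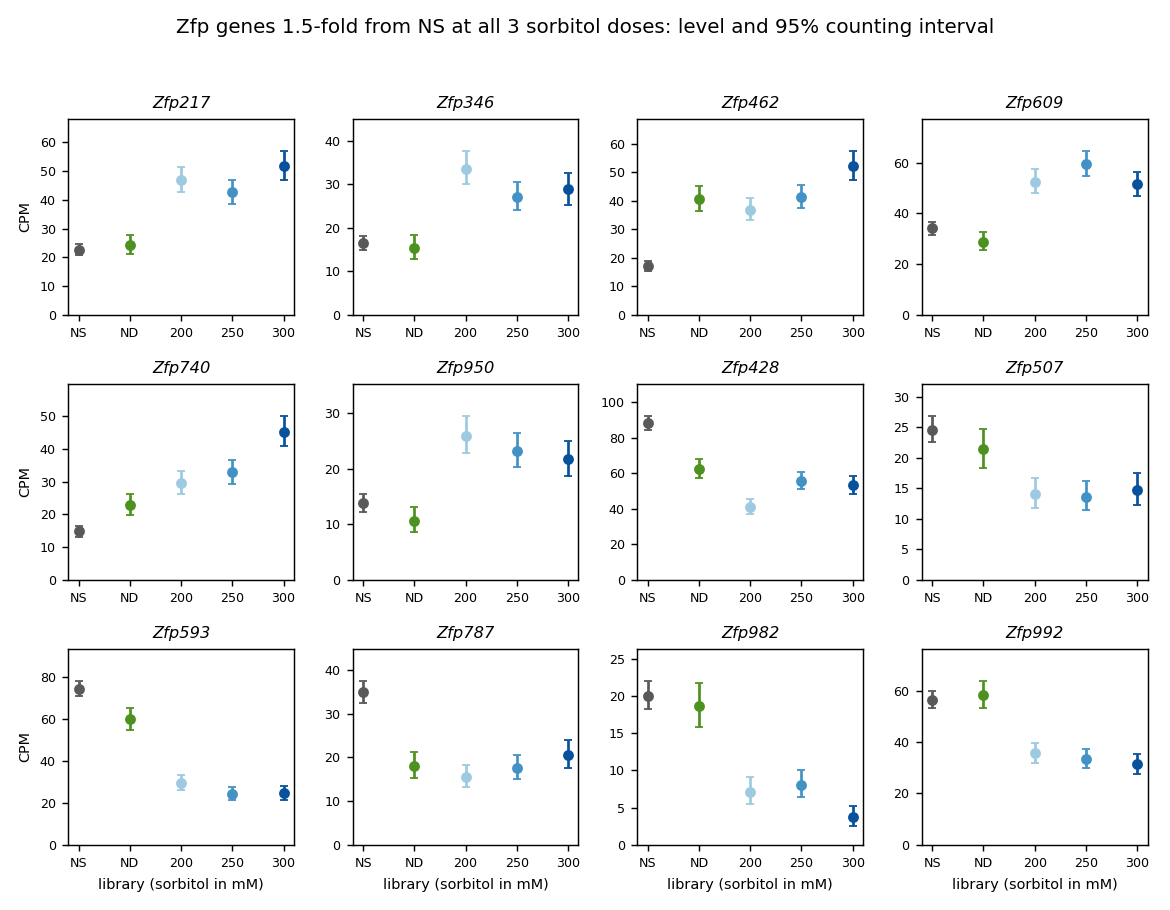
Level in CPM (y axis, starting at 0) in the 5 libraries (x axis, sorbitol in mM) of the 12 members at least 1.5-fold from NS at all 3 doses; bars are 95% Poisson intervals for counting error, with 1 library per condition. Zfp740 reaches 45.2 CPM at 300 mM, Zfp593 is at 74.2 CPM in NS and 24.5 CPM at 300 mM, and Zfp462 is already at 40.4 CPM in ND.

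On the lower side Zfp982 and Zfp593 stood out. Zfp982, a KRAB zinc finger gene on chromosome 4 at 147492417 to 147513486 (plus strand), was at 20.04 CPM in NS, 18.6 CPM in ND and 7.15, 8.09 and 3.69 CPM at 200, 250 and 300 mM. The log2 ratio at 300 mM was -2.44 (-3.02 to -1.92) and rests on 444 UMIs in NS and 31 at 300 mM. It passed the threshold through NS alone, where it lay just above 20 CPM. Zfp593, whose product takes part in assembly of the large ribosomal subunit, lies on chromosome 4 at 134243289 to 134245592 (minus strand). It was at 74.2 CPM in NS, 59.8 CPM in ND and 29.5, 24.2 and 24.5 CPM, and its log2 ratio at 300 mM was -1.60 (-1.81 to -1.39). Its 250 and 300 mM levels did not differ beyond counting error.

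Zfp787, on chromosome 7 at 6131491 to 6155997 (minus strand), was at 34.9 CPM in NS, 18.0 CPM in ND and 15.6, 17.6 and 20.6 CPM at the doses. NS alone was high, the mirror of Zfp462, and the same limit of a single NS library holds. Zfp428 was at 88.1 CPM in NS, 62.7 CPM in ND and 41.1, 55.8 and 53.2 CPM, lowest at 200 mM. Zfp507 was at 24.6 and 21.3 CPM without sorbitol and 14.1, 13.6 and 14.6 CPM with it. It reached 20 CPM only in NS and ND, so the choice of members favoured its lower levels under sorbitol. Zfp992 was at 56.5 and 58.3 CPM, and at 35.6, 33.6 and 31.3 CPM. Zfp507 and Zfp992 were thus flat across doses and near NS in ND (log2 ratios of -0.21 and 0.05).

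Zfp330, which encodes a nucleolar cysteine-rich protein and had no C2H2 match, was at 68.3 CPM in NS, 62.0 CPM in ND and 46.2, 45.4 and 37.8 CPM. At 200 mM Zfp459, a KRAB zinc finger gene, was at 9.21 CPM against 22.5 CPM in NS, and it was at 16.8 and 20.2 CPM at the higher doses. Its log2 ratio to NS at 250 mM was -0.42 as CPM and -0.63, past 1.5-fold, under median-of-ratios scaling.

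From 200 to 250 mM the share of members that were higher was above that of all genes. In 250 mM against 200 mM, 10 members were 1.5-fold higher and 2 lower (10.99% and 2.20%), beside 2.5% and 1.24% of all genes. Median-of-ratios scaling gave 6 and 3 (6.59% and 3.30%), beside 1.56% and 2.19%. The median log2 ratio was 0.17 for members and 0.06 for all genes. By range of highest level, 6.67% of members were higher at 20 to 40 CPM, beside 2.74% of other genes, 17.6% beside 2.33% at 40 to 80 CPM, and 1 of 12 (8.33%) beside 2.06% above that. Under median-of-ratios scaling the shares were 4.44% beside 1.73%, 11.8% beside 1.52%, and 0 of 12 beside 1.25%.

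Zfp296, a stem cell factor that works with KLF4 and the NuRD complex, showed the widest step. It was at 54.1 CPM in NS, 47.4 CPM in ND and 27.2, 59.0 and 43.8 CPM at 200, 250 and 300 mM, and the log2 ratio of 250 to 200 mM was 1.117 (0.90 to 1.34). The 200 mM library alone was low for this gene. Its exons overlap on the opposite strand those of Gemin7, which was at 35.7, 42.9, 25.8, 32.7 and 39.1 CPM. Zfp459, Zfp553 (which overlaps Sept1 on the opposite strand) and Zfp704 followed with log2 ratios of 0.87, 0.76 and 0.70, and Zfp981, Zfp990, Zfp936, Zfp771, Zfp57 and Zfp622 with 0.60 to 0.69. Sept1 was at 97.5 CPM in NS, 50.9 in ND and 118, 150 and 131 CPM over the doses, and its part in the level of Zfp553 was not tested. On the lower side were Zfp143, from 23.4 to 13.6 CPM, a log2 ratio of -0.78 (-1.104 to -0.46), and Zfp560, from 23.8 to 15.8 CPM. Zfp143 passed the threshold only through the 200 mM library, and Zfp936 only through the 250 mM library, so the choice of members favoured these differences. Zfp143 is a general activator of promoters that carry its own binding site.

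Of the 91 members, 9 lay below NS at 200 mM and at or above NS at 250 and 300 mM. Counting any difference as CPM, 34 members were higher at both steps (200 to 250 and 250 to 300 mM) and 10 lower at both. Among the doses, 29 were highest and 18 lowest at 250 mM. These patterns were not counted over other genes, so they cannot be read as a trait of the members. Of all genes, 58.4% were higher by any amount from 200 to 250 mM and 58.0% from 250 to 300 mM. With 1 library per dose, a step cannot be told apart from a property of a single library such as the 200 mM one. From 250 to 300 mM 3 members were 1.5-fold higher (Zfp980, Zfp280b and Zfp639) and 1 lower (Zfp982), 3.30% and 1.099% beside 2.23% and 1.26% of all genes. Under median-of-ratios scaling it was 2 and 1, beside 1.57% and 1.84%. Zfp639 was at 102 CPM at 250 mM and 154 CPM at 300 mM, having been at 127 CPM in NS, 95.01 CPM in ND and 129 CPM at 200 mM.

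Between the highest sorbitol dose and growth without LIF, members again went both ways. In 300 mM against ND 20 members were 1.5-fold higher and 10 lower (22.0% and 10.99%), beside 23.7% and 10.6% of all genes. Under median-of-ratios scaling 11 were higher and 15 lower, beside 16.8% and 16.1%. The medians were 0.14 and 0.16. Zfp280b (log2 ratio 1.70, 1.43 to 1.97), Zfp654 (1.49, 1.12 to 1.87), Zfp57 (1.46, 1.25 to 1.66), Zfp820 (1.38), Zfp518b (1.34) and Zfp217 (1.099) were highest. Zfp820 passed the threshold only through the 300 mM library. Below ND were Zfp981 (-1.33, -1.71 to -0.96), which passed the threshold only through ND, Zfp593 (-1.29, -1.53 to -1.05), Zfp990, Zfp992, Zfp266 and Zfp532 (each between -0.90 and -0.89). Zfp982, under 20 CPM in both libraries, had a log2 ratio of -2.34 (-2.94 to -1.77).

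Among 8 members linked to pluripotency (Zfp281, Zfp143, Zfp462, Zfp296, Zfp322a, Zfp706, Zfp217 and Zfp57), 2 were 1.5-fold higher and none lower in ND as CPM, beside 7.69% and 4.5% of all genes. At 200 mM 2 were higher and 1 lower (all genes 22.3% and 10.4%), and at 250 and 300 mM 3 were higher and none lower (all genes 23.1% and 7.49%, then 29.8% and 9.69%). Median-of-ratios scaling gave the same counts except for 1 lower member at 250 mM, Zfp143. Under that scaling 5.09% of all genes were higher and 6.42% lower in ND. At the doses it was 15.6% and 15.6%, 13.6% and 13.9%, and 17.5% and 18.2%. The 3 higher members at 300 mM were Zfp462, Zfp217 and Zfp57. The median log2 ratio of the list at 300 mM was 0.27, beside 0.26 over all genes. Zfp281 was at 31.5, 29.3 and 42.8 CPM at the doses, so its ND level of 56.2 CPM was its highest. Zfp322a, which is known to act at the Pou5f1 and Nanog genes, stayed between 22.8 and 25.7 CPM in all 5 libraries. Zfp143 was at 18.1 CPM in NS, 15.3 CPM in ND and 23.4, 13.6 and 15.2 CPM at the doses.

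Members known for guarding imprints or silencing retroelements were Zfp57, Zfp445 and Zfp568, while Zfp809, Zfp932, Zfp819 and Zfp708 were below 20 CPM. Zfp57, the KRAB protein that binds methylated imprinting control regions, lies on chromosome 17 at 37001163 to 37010635 (plus strand). It was at 42.6 CPM in NS, 31.1 CPM in ND and 58.7, 89.6 and 85.3 CPM at the doses. ND was its lowest library and 250 mM its highest, and the log2 ratio to NS was -0.45 (-0.65 to -0.25) in ND and 1.003 (0.86 to 1.15) at 300 mM. Zfp445, which acts at imprints beside Zfp57, was at 32.3 CPM in NS, 47.6 CPM in ND and 34.6, 41.1 and 45.3 CPM. Zfp445 and Zfp57 thus lay on opposite sides of NS in ND, Zfp445 higher by a log2 ratio of 0.56 (0.38 to 0.74).

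Zfp568, the repressor of a placental Igf2 promoter, was at 71.7, 73.9, 72.7, 95.02 and 104 CPM in the order NS, ND, 200, 250 and 300 mM. All 3 of these members were above NS at each dose as CPM, and Zfp445 and Zfp568 were slightly below it at 200 mM under median-of-ratios scaling (-0.04 and -0.12). Among the rows below the threshold, Zfp809, which silences murine leukaemia virus, was at 9.16 CPM in NS, 9.19 CPM in ND and 13.3, 16.4 and 14.0 CPM. Zfp932 was at 13.5 and 11.1 CPM without sorbitol and 11.3, 7.27 and 8.81 CPM with it. Zfp819 was at 6.18 and 7.90 CPM, and at 1.30, 2.66 and 4.28 CPM, lowest at 200 mM.

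The 22 genes of the KRAB repression machinery, which are not members, all passed the threshold. As CPM 8, 9 and 11 of the 22 were 1.5-fold higher at 200, 250 and 300 mM and 1 was lower at each dose, beside 22.3%, 23.1% and 29.8% of all genes higher and 10.4%, 7.49% and 9.69% lower. Under median-of-ratios scaling 4, 8 and 9 were higher and 3, 1 and 2 lower, beside 15.6%, 13.6% and 17.5% higher and 15.6%, 13.9% and 18.2% lower. The median log2 ratio at 300 mM was 0.60 as CPM and 0.34 under the other scaling. In ND 3 were higher and none lower under both scalings, beside 7.69% and 4.5% of all genes as CPM, with a median of 0.28. Trim28, the corepressor itself, was at 522 CPM in NS, 643 CPM in ND and 799, 1072 and 1020 CPM at the doses. Setdb1 was at 37.8, 49.5, 60.0, 69.7 and 72.6 CPM in the same order, and both were thus above NS in ND and at every dose.

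Zfp410 is known for a single main target, the NuRD helicase gene Chd4. Zfp410 was at 15.3 CPM in NS, 15.7 CPM in ND and 16.6, 16.1 and 21.3 CPM at the doses. Chd4 was at 309, 520, 585, 671 and 655 CPM. Chd4 was therefore higher than NS in ND and at every dose, while the interval of the Zfp410 ratio to NS held 0 except at 300 mM (0.20 to 0.74), the single library in which Zfp410 reached 20 CPM.

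Of 11 members linked to RNA, ribosomes or ubiquitin, none was 1.5-fold from NS in ND. As CPM 7.69% of all genes were higher there and 4.5% lower. At 200 mM 1 was higher and 3 lower under both scalings. All genes gave 22.3% and 10.4% as CPM and 15.6% and 15.6% under median-of-ratios scaling. At 250 mM 2 were higher and 1 lower as CPM (all genes 23.1% and 7.49%). Median-of-ratios scaling gave 1 and 2 at that dose (all genes 13.6% and 13.9%). At 300 mM 2 were higher (Zfp346 and Zfp638) and 1 lower (Zfp593), beside 29.8% and 9.69% of all genes, and under median-of-ratios scaling none was higher and 3 were lower, beside 17.5% and 18.2%. Zfp638, known for silencing unintegrated retroviral DNA, was at 79.8 CPM in NS, 99.8 CPM in ND and 117, 146 and 135 CPM at the doses. Zfp622, a factor of late large-subunit maturation, was at 62.8, 66.6, 36.2, 54.7 and 46.6 CPM, and Zfp598, the ubiquitin ligase that marks collided ribosomes, at 50.2, 53.3, 53.7, 70.6 and 67.5 CPM. As CPM, Zfp593 and Zfp622 were below NS at every dose, as were 26.9% of the other genes, and Zfp598 was not. The log2 ratios of Zfp622 to NS were -0.79, -0.20 and -0.43 at the doses, past 1.5-fold only at 200 mM as CPM. Zfp91, a ubiquitin ligase, was at 108, 111, 59.4, 77.5 and 78.7 CPM, near NS in ND and low in all sorbitol libraries. Zfp207, a spindle assembly factor that stabilises BUB3, was at 122, 140, 103, 100.2 and 129 CPM.

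Of 14 large multi-finger regulators, 2 were higher in ND (Zfp704 and Zfp532) and none lower under both scalings, beside 7.69% and 4.5% of all genes as CPM. As CPM 2 were higher and 3 lower at 200 mM (all genes 22.3% and 10.4%), and 3 were higher and none lower at 250 and at 300 mM (all genes 23.1% and 7.49%, then 29.8% and 9.69%). Under median-of-ratios scaling 1 was higher and 4 lower at 200 mM, beside 15.6% and 15.6% of all genes. At each of the upper doses 2 were higher and 1 lower under that scaling (all genes 13.6% and 13.9%, then 17.5% and 18.2%). Zfp516 was at 29.7 CPM in NS, 38.7 CPM in ND and 49.4, 41.8 and 42.5 CPM. Zfp644, a partner of the H3K9 methyltransferases G9a and GLP, was at 61.3, 72.0, 34.6, 49.0 and 48.1 CPM. The paralogues Zfp518a and Zfp518b went apart: Zfp518a was at 30.4, 34.5, 19.4, 23.9 and 32.8 CPM and Zfp518b at 30.5, 22.3, 41.4, 50.7 and 56.3 CPM. At 200 mM their intervals to NS lay on opposite sides of 0 (-0.89 to -0.41 and 0.26 to 0.62).

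A KRAB-like stretch was found in the coding sequence of 26 members (28.6%) and of 158 of 298 rows below the threshold (53.0%). Put the other way, 14.1% of 184 rows with the stretch were members and 31.7% of 205 without it. The pattern misses divergent KRAB domains such as that of Zfp445, so these are lower counts. Members had a median of 7 finger matches and the rows below the threshold 11, and 39 members (42.9%) lay within 500 kb of another Zfp row, beside 227 of 299 (75.9%). At 300 mM, where 29.8% of all genes were higher than NS and 9.69% lower as CPM, 5 of the 26 KRAB-like members were higher and 5 lower, and 17 and 5 of the 65 others, with median log2 ratios of 0.37 and 0.20. Under median-of-ratios scaling (all genes 17.5% and 18.2%) it was 4 and 5 of the 26 and 7 and 11 of the 65, with medians of 0.12 and -0.05, so the median of the others changed sign. Of the 52 members that lay alone 16 were higher and 2 lower as CPM but 9 and 7 under median-of-ratios scaling, and of the 39 in clusters 6 and 8 as CPM and 2 and 9 under the other scaling.

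All 7 KRAB-like members of chromosome 4 (Zfp979, Zfp980, Zfp981, Zfp982, Zfp985, Zfp990 and Zfp992) lay in a young cluster between the start of Zfp990 at 145510759 and the end of Zfp979 at 147642513 (GRCm38). The grouping was chosen after the values were seen. At 200 mM 4 of the 7 were 1.5-fold lower than NS and none higher, at 250 mM 2 were lower, and at 300 mM 4 were lower and 1 higher. Of all genes, 10.4%, 7.49% and 9.69% were lower at 200, 250 and 300 mM, and 22.3% and 29.8% higher at 200 and 300 mM. Median-of-ratios scaling gave the same counts at the doses, beside 15.6%, 13.9% and 18.2% of all genes lower. In ND none was lower and 2 were higher as CPM (Zfp981 and Zfp985), beside 4.5% and 7.69% of all genes. Under the other scaling none was lower or higher, beside 6.42% and 5.09%. Zfp981 reached 20 CPM only in ND, so the choice of members favoured its high level there. Zfp990 was at 59.6 CPM in NS, 70.0 CPM in ND and 33.9, 53.5 and 37.5 CPM at the doses, and Zfp981 at 16.8, 25.7, 8.67, 14.0 and 10.2 CPM, so both were highest in ND. Zfp985 was highest at 300 mM, at 23.3, 35.6, 26.6, 30.9 and 43.3 CPM, and so was Zfp979 at 41.2, 44.3, 42.6, 54.2 and 61.3 CPM.

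Copies make part of this cluster uncertain. Within the last 500 bases of their transcripts, where tag reads fall, 63.6% of 50-base windows of Zfp980, 52.6% of Zfp981, 24.6% of Zfp990, 14.2% of Zfp985 and 2.78% of Zfp982 also occur in other genes, and none of Zfp979 or Zfp992. Reads of Zfp980 and Zfp981 could be split with each other and with Zfp600. Over all members 78 shared no such window and 13 shared some. Those above 50% were Zfp980, Zfp981 and Zfp955b (71.8%), and Zfp706 shared 38.6% and Zfp638 26.4%. Exons of 33 members overlapped another gene, 27 on the opposite strand.

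RefSeq promoter windows (GRCm38.p6, 250 bases before to 50 after each start) were given for 74 of the 91 members. They are shown for Zfp740 and Zfp217, which were higher at all 3 doses, and for Zfp787, which was lower. RefSeq gives Zfp740 and Zfp217 a pair of windows each, of which 1 is shown. For Zfp740 it is the one with a motif match, and the other, with a GC content of 85.3%, had none. Neither window of Zfp217 had a match. The letters TGGAAA, the core of the element bound by the osmotic stress factor NFAT5, are in capitals where they occur on either strand, and none of the 5 motifs searched occurred in the other 2 windows shown.
Zfp740, chr15:102204321-102204620, plus strand: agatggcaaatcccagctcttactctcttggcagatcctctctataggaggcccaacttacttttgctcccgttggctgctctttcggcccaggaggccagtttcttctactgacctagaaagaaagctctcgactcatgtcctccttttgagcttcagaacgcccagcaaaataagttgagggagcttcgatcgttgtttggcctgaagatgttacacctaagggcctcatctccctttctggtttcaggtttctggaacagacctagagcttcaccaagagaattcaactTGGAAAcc
Zfp217, chr2:170142626-170142925, minus strand: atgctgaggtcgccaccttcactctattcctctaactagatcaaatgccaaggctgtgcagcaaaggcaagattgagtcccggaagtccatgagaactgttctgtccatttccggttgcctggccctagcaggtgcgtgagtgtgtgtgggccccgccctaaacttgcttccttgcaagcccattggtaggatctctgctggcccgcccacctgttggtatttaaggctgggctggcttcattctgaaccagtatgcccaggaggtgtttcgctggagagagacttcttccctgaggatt
Zfp787, chr7:6155916-6156215, minus strand: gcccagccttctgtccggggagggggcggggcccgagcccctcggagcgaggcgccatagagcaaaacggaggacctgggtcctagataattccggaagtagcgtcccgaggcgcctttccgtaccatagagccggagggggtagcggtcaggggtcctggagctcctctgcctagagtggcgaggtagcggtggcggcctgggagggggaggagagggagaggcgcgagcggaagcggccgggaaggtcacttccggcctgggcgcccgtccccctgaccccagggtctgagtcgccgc
TGGAAA was in at least 1 window of 29.7% of the 74 members, 18.2% of 5579 other genes that passed the threshold and 23.9% of all 27025 genes in the table. The members with it include Zfp57, Zfp740 and Zfp982, of which Zfp982 was lower and the other 2 higher under sorbitol. The match of Zfp982 is in the window chr4:147442864-147443163, which lies before the start of the gene as given above. The window at that start, chr4:147492167-147492466, had none. GCCATNTT, the core bound by YY1, was in 21.6% of members, 12.3% of the others and 6.96% of all genes. ACTACAA, the site of Zfp143, was in 6.76%, 5.52% and 3.78%, GCGCATGC (NRF1) in 6.76%, 7.13% and 3.05%, and TGACGTCA (CREB and ATF factors) in 1.35%, 4.02% and 2.03%. These are matches of letters on both strands and not sites shown to be bound, and the motifs were chosen with the values known. The median GC content of the windows was 59.2% for members and 62.7% for the other genes.

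In single barcodes the members gave few UMIs. After thinning every barcode to 500 UMIs, which all 10000 barcodes of each library reached, a barcode held a mean of 1.89 member UMIs in NS, 1.996 in ND and 1.89, 2.11 and 2.15 at the 3 doses. The variance over the mean of that count was 0.99 to 1.02, where 1 is the value for random draws from 1 profile. No member UMI was found in 15.0% of barcodes in NS, 13.4% in ND and 15.2%, 12.2% and 12.03% at the doses. Of the 25 to 39 members with a mean of at least 0.02 UMIs per barcode, none exceeded a variance over mean of 1.1 in any library, and neither did more than 0.696% of other genes. The highest was Zfp60 in NS, at 1.08. Zfp60 was above 1 in all 5 libraries, at 1.03 in ND and 1.04, 1.03 and 1.06 at 200, 250 and 300 mM, and Zfp512 was at 1.08 in NS. In NS 6 of 29 members lay above the value that 90% of other genes stayed under, 1.02, and in the other libraries 2 to 4 of 25 to 39 did. At a mean near 0.02 UMIs, a member's value stays near 1 even where its level differs between barcodes. Values near 1 therefore cannot show that such a member was even across barcodes, and no test was made of these values.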

How the data were processed

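Single-cell RNA libraries of 5 conditions, 1 each, were analysed; groups come from the labels. The authors deposited unnormalized UMI counts for each gene in each barcode, and per the file headers Cell Ranger 6.0.1 wrote them. The submitters' processing notes also name Seurat 4.1.1, R 4.1.2 and mm10. The labels' protocols name a Trizol lysis and a Lexogen 3' kit, which does not match droplet matrices; this was not settled. No source used here gives the annotation, the use of strand or how barcodes were picked.

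UMIs were summed over all barcodes and scaled to CPM (Python 3.11.15, numpy 2.4.6, pandas 2.3.3, scipy 1.17.1). Levels have exact Poisson and log2 ratios exact conditional binomial 95% intervals. A gene was called at 1.5-fold. No test was possible with 1 library per condition. Doublets were not treated. The counting of calls was tested on simulated data.

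Values are named for the 10 members with the highest mean CPM, the 6 highest and lowest ratios per comparison with NS and of 300 mM against ND among members at 20 CPM in either library, the 3 highest and lowest per dose step, up to 8 members each way on 1 side of NS at all doses, the 3 rows on each side of the threshold, and the role lists. Members, lists and motifs were chosen with earlier results of these data known. C2H2 and KRAB patterns were searched in GENCODE M21 coding sequences, which all 390 gene IDs matched. The values of 1 gene of the KRAB machinery list are not reported here.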

Additional observations from a re-analysis of the deposited data

How the results depend on the processing

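No paired analysis was possible because each condition has 1 library. Median-of-ratios scaling moved the members' shares to 4.40% higher in ND, 9.89% higher and 16.5% lower at 250 mM (median -0.00055), 12.1% higher and 17.6% lower at 300 mM (median 0.0092), 6.59% higher from 200 to 250 mM and 12.1% higher at 300 mM against ND. A minimum of 10 CPM gave 5.88% lower in ND and 3.53% lower from 200 to 250 mM, and a minimum of 40 CPM gave 0% lower in ND and in both dose steps. With no minimum the shares were 11.9% lower in ND, 22.6% higher at 200 mM, 6.81% lower from 200 to 250 mM, 8.99% higher and 7.90% lower from 250 to 300 mM and 33.7% higher at 300 mM against ND. A 2-fold threshold gave 1.10% higher and 0% lower in ND, 4.40% and 5.49% at 200 mM, 3.30% and 2.20% at 250 mM, 7.69% and 2.20% at 300 mM, 1.10% and 0% from 200 to 250 mM, 0% higher from 250 to 300 mM, and 7.69% and 3.30% at 300 mM against ND. Of all 6996 genes, 113 were 2-fold higher and 113 lower in ND, 530 and 192 at 200 mM, and 502 and 150 at 250 mM. It was 837 and 225 at 300 mM, 11 and 9 from 200 to 250 mM and 3 and 14 from 250 to 300 mM. At 300 mM against ND it was 647 and 240. No share over all genes was taken at a minimum of 10 or 40 CPM or with no minimum. Median-of-ratios scaling shifts all log2 ratios of a comparison by the same amount. The other settings admit other genes or another fold, and with no minimum these genes include rows with few UMIs. What moved the shares was not tested. Without mitochondrial and ribosomal protein genes in the total, the summed level was 5557, 5757, 5464, 5864 and 5957 CPM in NS, ND, 200, 250 and 300 mM. Filters on barcodes (500 or more genes with no more than 20% mitochondrial UMIs, or without the 5% with most UMIs) changed no call count by more than 1.5 times. Of 372 recomputed ratios of the 93 named values, 350 stayed within their counting interval, 22 moved under median-of-ratios scaling and 0 reversed. ND and the sorbitol libraries were shallower than NS, so their intervals are wider.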
